A study of Mus musculus with 4 samples.

Results

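The enzymes that write, maintain and remove DNA methylation were followed in ureters of mouse embryos that lack ΔNp63, the p63 form of basal epithelial cells, in the tissue reached by Pax2-cre. They are the genes Dnmt3l, Dnmt3a, Dnmt3b, Dnmt1, Uhrf1, Tet1, Tet2 and Tet3, taken as every probe for the biological RNAs whose gene name in the scanner files is one of these names. That gave 8 of the 24357 named genes on the array, measured by 17 probes, 16 of which passed the filter on dim signal; all 8 genes kept at least 1 probe. The family was chosen by the cKO over control ratios of these same arrays, in which Dnmt3l was already known to stand among the deepest falls. Those ratios are therefore given below as a description, without a test.

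Each of 4 two-colour arrays carried RNA of a cKO ureter sample in 1 channel and RNA of a control sample in the other, so there were 4 RNAs per genotype. The cKO was Pax2-cre/+; Trp63(dN-flox/dN-flox), in which the ΔN form is floxed on each Trp63 allele and 1 cre allele is present. The control was Trp63(dN-flox/?), a genotype that holds at least 1 floxed allele and for which the labels list no cre. All embryos were of the NMRI strain at E18.5, the ureters were dissected mechanically, and array 2 carried a male pair while arrays 1, 3 and 4 carried female pairs. The cre is driven by Pax2 and the whole ureter was extracted, so the RNA also holds cells in which no recombination was sought. The labels do not say whether an RNA came from 1 embryo or from several, and all errors below measure the spread between these 4 arrays.

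Cytosine methylation at CpG sites is set by the de novo methyltransferases DNMT3A and DNMT3B, and is copied after each replication by DNMT1, which UHRF1 brings to half-methylated sites. DNMT3L has no catalytic activity; it binds the de novo enzymes, stimulates them, and is known above all from germ cells and early embryos, where it is needed for methylation imprints. The TET enzymes oxidise 5-methylcytosine, the first step of active demethylation, after which base excision repair can restore an unmodified cytosine.

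The Dnmt3l difference rests on 1 probe and the Dnmt3b difference on 3, so the probes of these genes are shown, with those of Dnmt3a and Dnmt1 for comparison. Each line gives 30 of the 60 bases of the probe, 5′ to 3′. Capitals mark the longest run of bases that the probe shares with a probe of another of the 8 genes. Where several runs tie, only 1 is marked.
Dnmt3l probe, bases 31 to 60: ttcttcctaaggtctcttccctcCACAGTT
Dnmt3b probe 1, bases 17 to 46: ggaccactttgCCTGTGAAtagttctaccc
Dnmt3b probe 2, bases 1 to 30: tcaggtccccAGAACCCCctagttcctcat
Dnmt3b probe 3, bases 31 to 60: ctttctggttgaTTAAAGTTGtatttctct
Dnmt3a probe, bases 1 to 30: atgttgaTGTGGAATCttactttcaaatgg
Dnmt1 probe, bases 31 to 60: cagttaaagcaaaaGAGGAGGctgctacca
The longest run shared by probes of any pair of these genes was 9 bases out of 60. The Dnmt3l probe shared at most 7, with a Uhrf1 probe and, in a run not marked above, with a Tet1 probe. In mm9, the build the file headers name, the Dnmt3l probe lies at chr10:77526112-77526171 on the plus strand. The 3 Dnmt3b probes lie at chr2:153512098-153512157, chr2:153512991-153513050 and chr2:153513403-153513462 on the plus strand, the Dnmt3a probe at chr12:3914320-3914379 on the plus strand, and the Dnmt1 probe at chr9:20711973-20712341 on the minus strand. That Dnmt1 span of 369 bases is longer than the 60 bases of the probe. The files do not say in which exon or untranslated region a probe lies.

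Before the enzymes, the labels were checked. Trp63, the targeted gene, had log2 ratios of cKO over control of -2.86, -1.68, -2.03 and -2.13 on arrays 1 to 4 with its brightest probe, and was called lower in cKO (4.52-fold, limma adjusted p = 0.00207). The other Trp63 probes gave -1.77 ± 0.42, -1.44 ± 0.27 and -0.14 ± 0.10 (SD, n = 4 each). The Y-linked gene Ddx3y stood at 13.57 (cKO) and 13.64 (control) log2 units on array 2, against 5.89 to 6.76 in the 6 other RNAs. The X-inactivation RNA Xist set the RNA labelled male cKO apart: it stood at 9.55 there and at 7.58 in the male control, with 12.18 to 13.30 in the female RNAs. Array 1 had more spots that stood well above background (90% in green and 82.6% in red) than the other arrays (at most 76.5% and 72.9%). Values without array 2 and without array 1 are therefore given for the main results. Superficial urothelium (5 of them uroplakins), smooth muscle and ureter mesenchyme markers (8 of 8 tested in each list) were well above background on all 4 arrays in at least 1 genotype.

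Dnmt3l was the enzyme that differed most. Its normalized log2 level was 9.42, 9.32, 9.23 and 9.30 in the cKO RNAs of arrays 1 to 4, and 12.19, 12.28, 12.11 and 12.16 in the control RNAs of the same arrays. The 4 cKO levels all lay below the 4 control levels, with a gap far wider than the spread of 0.08 log2 units (SD) among the cKO RNAs or of 0.07 among the controls. The log2 ratio was -2.77, -2.95, -2.88 and -2.86, with a mean of -2.87 ± 0.07 (SD, n = 4), which is 7.3-fold lower in cKO. Expressed as a share of the control level, the cKO had 14.6%, 12.9%, 13.5% and 13.8% on arrays 1 to 4. The SD of 0.07 compares with a median SD of 0.13 over all 18170 tested genes. Without the male pair the ratio fitted with the dye term was -2.84, and without array 1 it was -2.90.

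Dnmt3l was among the deepest falls of the tested genes. Beside it, Krt5, a keratin of basal cells, had a ratio of -2.86 ± 0.10, and Ly6d, a surface protein of stratified epithelia, had -2.85 ± 0.19 (SD, n = 4 each). Signal remained in the mutant: the probe was well above background on 4 of 4 arrays in cKO as in control, and the cKO level was at least 2.57 log2 units above the dimmest level that counted as well above background. The fold is thus a measured value and no lower bound, but its size depends on the processing. The log2 ratio was -3.02 with Agilent's processed signals and -3.01 in the deposited value table. In whole-tissue RNA, fewer cells of a type and less RNA per cell cannot be told apart, for this and for every ratio below.

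**Figure D1:**
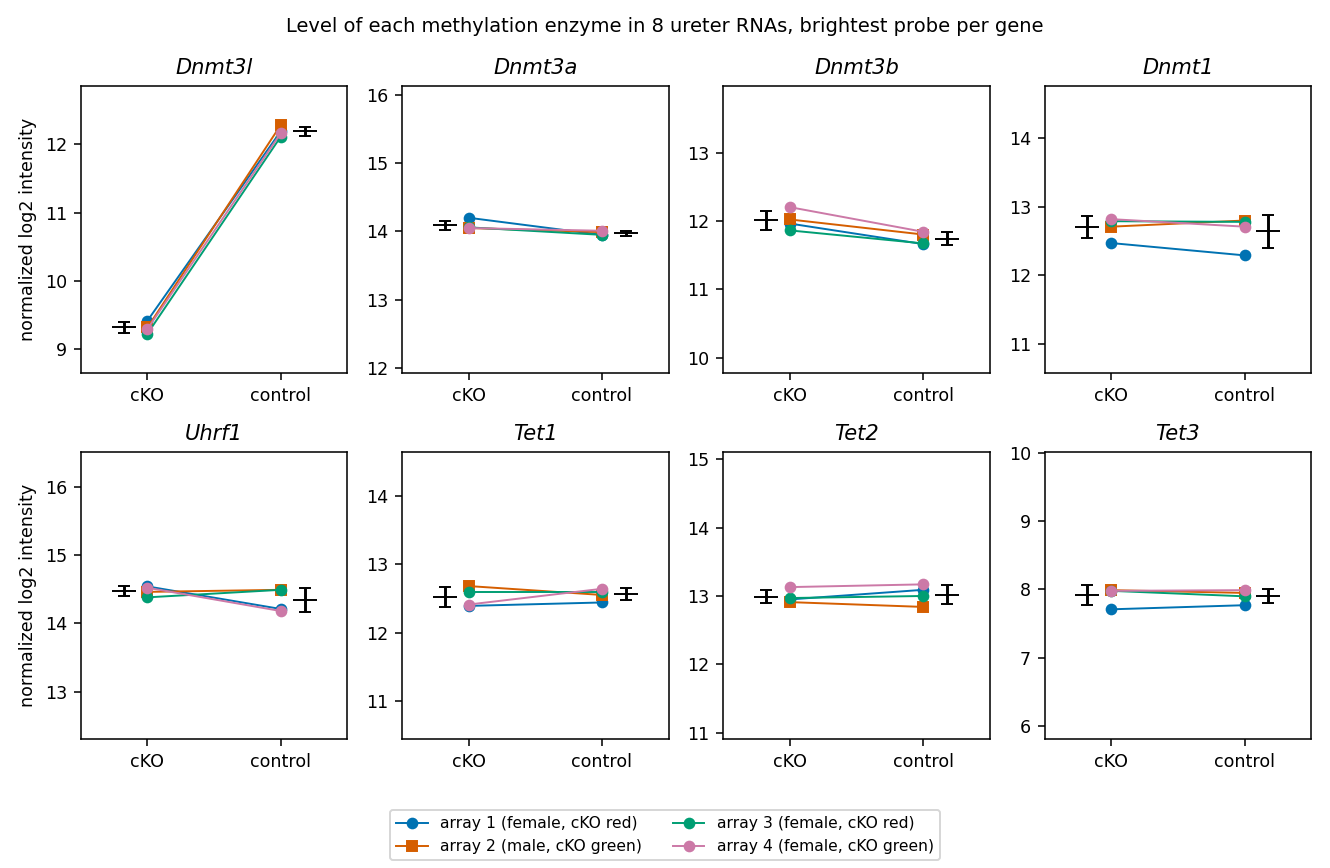
Normalized log2 level of each enzyme in 4 cKO RNAs (left of each pair) and 4 control RNAs (right), by array; levels of different genes come from different probes and are not comparable. Dnmt3l stands at 9.23 to 9.42 in cKO and at 12.11 to 12.28 in control, while the groups of the other genes lie close together.

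The partners that DNMT3L stimulates, Dnmt3b and Dnmt3a, differed little, and neither was called. The Dnmt3b probe that stands for the gene read 11.96, 12.02, 11.86 and 12.20 in the cKO RNAs and 11.66, 11.80, 11.67 and 11.84 in the control RNAs. The lowest cKO level exceeded the highest control level by a narrow margin. Its ratio was 0.29, 0.23, 0.19 and 0.36, a mean of 0.27 ± 0.07 (SD, n = 4), or 1.2-fold. The ratio fitted with the dye term was 0.30 without the male pair and 0.24 without array 1. The other Dnmt3b probes had 0.18 ± 0.04 and 0.22 ± 0.07, and 12 of the 12 values from 3 probes on 4 arrays were above 0; levels of those other probes overlapped between the genotypes. The 3 probes share the same RNA on each array and are not independent replicates.

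Dnmt3a read 14.20, 14.05, 14.06 and 14.05 in the cKO RNAs and 13.95, 13.99, 13.95 and 14.01 in the control RNAs. The groups did not overlap, and array 1 held the highest cKO level. The ratio was 0.25, 0.05, 0.11 and 0.04, with a mean of 0.11 ± 0.10 (SD, n = 4), or 1.08-fold. Fitted with the dye term, the ratio was 0.08 without array 1 and 0.11 without the male pair.

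The maintenance pair did not separate. Dnmt1, the copying enzyme, read 12.47, 12.71, 12.79 and 12.82 in the cKO RNAs and 12.29, 12.80, 12.78 and 12.71 in the control RNAs, with both RNAs of array 1 below all others. Its ratio changed sign between arrays (0.18, -0.08, 0.01 and 0.11), with a mean of 0.05 ± 0.11 (SD, n = 4). Uhrf1, which guides DNMT1 to replicated DNA, read 14.54, 14.46, 14.38 and 14.52 in the cKO RNAs and 14.21, 14.49, 14.49 and 14.18 in the control RNAs, and the groups overlapped. The Uhrf1 ratio was 0.34 and 0.33 on arrays 1 and 4 and -0.03 and -0.11 on arrays 2 and 3, a mean of 0.13 ± 0.24 (SD, n = 4). A second Uhrf1 probe, at chr17:56451668-56452321, gave 0.10 ± 0.15 beside the first at chr17:56462770-56462829.

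The demethylating enzymes also overlapped between the genotypes. Tet1 read 12.39, 12.68, 12.60 and 12.41 in the cKO RNAs and 12.44, 12.55, 12.60 and 12.64 in the control RNAs, a ratio of -0.04 ± 0.15 (SD, n = 4). Tet2 read 12.95, 12.91, 12.97 and 13.13 in the cKO RNAs and 13.09, 12.84, 13.00 and 13.17 in the control RNAs, a ratio of -0.03 ± 0.09. Tet3 read 7.71, 7.99, 7.98 and 7.98 in the cKO RNAs and 7.77, 7.95, 7.90 and 7.99 in the control RNAs, a ratio of 0.02 ± 0.06. Each TET gene therefore moved by less than its own spread over arrays.

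The several probes of a TET gene mostly read alike. The 3 Tet1 probes had mean ratios of -0.03, -0.04 and -0.01. For Tet2, 2 probes near chr3:133126751-133126964 gave -0.03 and -0.07, while a probe upstream on the minus strand, at chr3:133176421-133176479, gave -0.22 ± 0.20 (SD, n = 4), with -0.46, -0.05, -0.32 and -0.05 on arrays 1 to 4. That probe read -0.39 where cKO was red and -0.05 where it was green, a difference between dye orientations that was not tested for this probe. For Tet3, the probe at chr6:83319720-83319779 stands for the gene, a second gave -0.08 ± 0.05, and the third was well above background on only 1 array in cKO and 2 in control and did not pass the filter.

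**Figure D2:**
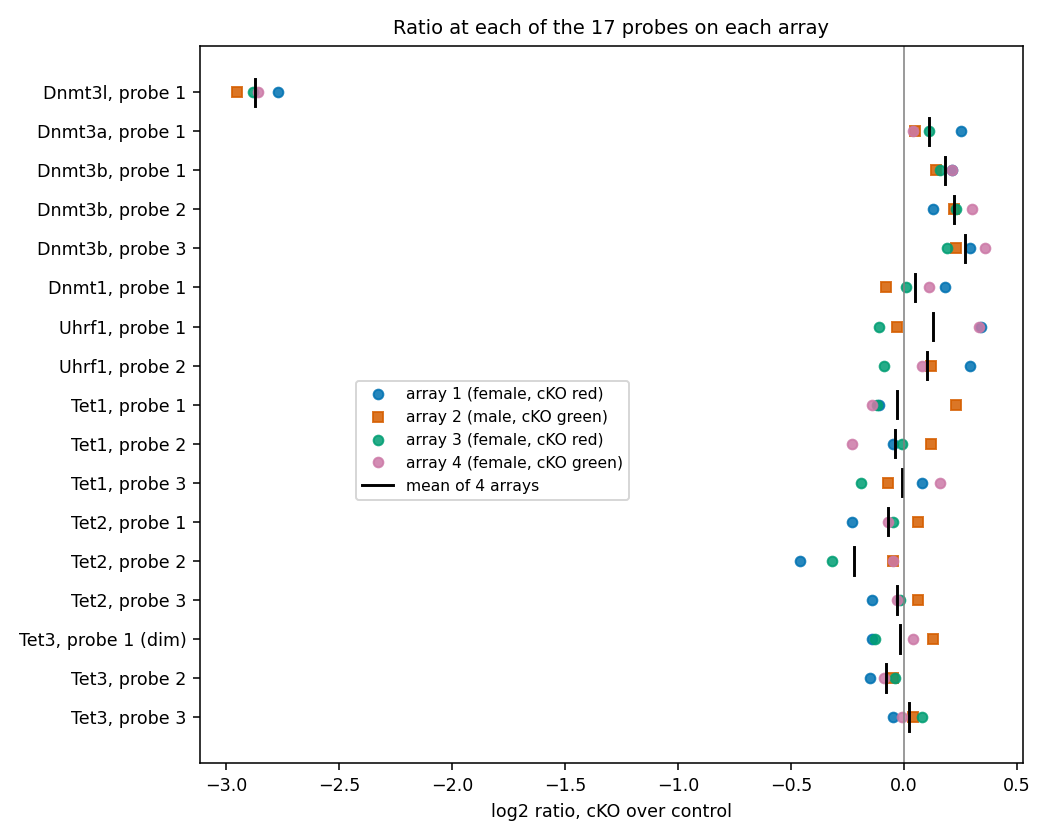
Log2 ratio of cKO over control for each of the 17 probes, with 1 point per array and a bar at the mean of 4 arrays. The Dnmt3l points lie between -2.95 and -2.77; the 3 Dnmt3b probes and the Dnmt3a probe lie above 0 on every array, Tet2 probe 2 and Tet3 probe 2 lie below 0 on every array, and the other probes lie on both sides of 0.

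Set against the whole array, 1 of the 8 enzymes was called lower (Dnmt3l), 0 higher and 7 not called at a limma adjusted p of 0.05. Over all 18170 tested genes 5.62% were called lower and 2.92% higher, 8.54% in either direction. Since the family was chosen with this contrast known, the count is a description. The cKO levels lay wholly below the control levels for 1 enzyme, Dnmt3l, as for 6.19% of all genes, and wholly above them for 2, Dnmt3a and Dnmt3b, as for 3.67%; in either direction the share of all genes was 9.85%. The median ratio of the 8 enzymes was 0.03, and that of all tested genes was 0.00.

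**Figure D3:**
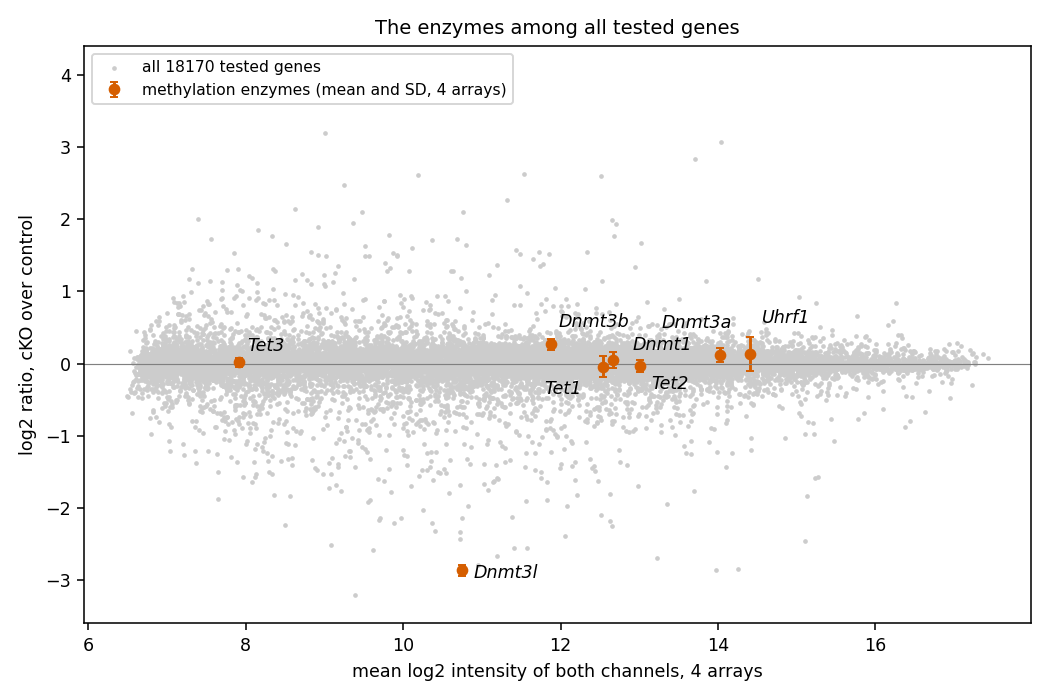
Log2 ratio of cKO over control against the mean log2 intensity of both channels for 18170 tested genes (grey) and the 8 enzymes (mean and SD over 4 arrays). Dnmt3l, at -2.87, lies at the lower edge of the cloud, and the other enzymes lie between -0.04 and 0.27.

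Whether the ratio differed with the sex of the pair or with the dye was not used to choose the enzymes and was tested. There was 1 male pair, so beside the dye term the sex difference is array 2 minus array 4, with 1 residual degree of freedom. By limma's adjusted p it reached the threshold for 0% of all genes (861 genes at an unadjusted p under 0.05) and for 0 of the 8 enzymes (0 at an unadjusted p under 0.05), and in this design that says nothing about whether the sexes differ. Tet1 and Uhrf1 had the largest differences of the 8: male minus female was 0.36 for Tet1 (limma adjusted p = 0.969) and -0.36 for Uhrf1 (limma adjusted p = 0.969). For Dnmt3l it was -0.09 (limma adjusted p = 0.985). Between the dyes, 0 of 8 enzymes differed by either p in limma and 0% of all genes by the adjusted p (958 genes at an unadjusted p under 0.05), and the ratio with cKO in red minus that with cKO in green was 0.08 for Dnmt3l (limma adjusted p = 0.898). The median absolute difference between the dyes was 0.11 over all genes.

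The order of the arrays differed between Dnmt3l and Trp63. On array 1 Trp63 had its deepest ratio (-2.86) and Dnmt3l its shallowest (-2.77), and on array 2 Trp63 had its shallowest (-1.68) and Dnmt3l its deepest (-2.95). With 4 arrays no correlation was computed. The SD of the Dnmt3l ratios was only 0.07, and arrays 1 and 2 also differ in sex and dye. Their order therefore cannot show whether Dnmt3l follows Trp63. The genes whose 8 levels were most like those of Dnmt3l were Duoxa1, a maturation factor of dual oxidase (Pearson r = 0.999), then Tbc1d9, Ly6d and Sdc1, a cell-surface heparan sulphate proteoglycan (r = 0.997 each), and Fam161a (r = 0.996). The 8 levels form 2 clusters, 1 per genotype, and pairs share an array, so r is a description only. Their ratios were -2.44 ± 0.11 for Duoxa1, -1.14 ± 0.06 for Tbc1d9, -1.42 ± 0.11 for Sdc1 and -0.95 ± 0.08 for Fam161a (SD, n = 4 each).

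Markers of basal urothelium were also lower in cKO. For comparison, 5.62% of all 18170 tested genes were called lower and 2.92% higher. At an unadjusted p under 0.05, 2330 of them were lower and 1970 higher. Of the 10 basal markers, which include Trp63 itself, 9 were called lower and the median ratio was -2.22 ± 0.10 (SD of the 4 array medians). The basal median was deepest on array 1 (-2.30) and shallowest on array 2 (-2.07), the reverse of Dnmt3l. With spreads this small, that order cannot show whether they run together. Their summed level was 13.70 to 13.98 log2 units in cKO and 16.26 to 16.47 in control. General epithelial markers were called lower for 5 of 10 (8 lower at an unadjusted p under 0.05), with a median of -0.53 that ran from -0.99 on array 1 to -0.24 on array 2, and a summed level of 17.79 to 18.47 in cKO and 18.51 to 18.61 in control. Superficial cell markers were called lower for 1 of 8 (5 lower at an unadjusted p under 0.05), with a median of -0.46 ± 0.34 and a summed level of 18.51 to 19.20 in cKO and 19.25 to 19.45 in control. Smooth muscle markers had 0 of 8 called by limma (3 higher at an unadjusted p under 0.05), with a median of 0.15 ± 0.10. Ureter mesenchyme markers had 1 of 8 called, the transcription factor gene Gata6 (0.42 ± 0.15, SD, n = 4; limma adjusted p = 0.0306), which was higher in cKO; 4 were higher at an unadjusted p under 0.05 and the median was 0.15 ± 0.12. The part of these markers in the Dnmt3l difference was not tested.

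**Figure D4:**
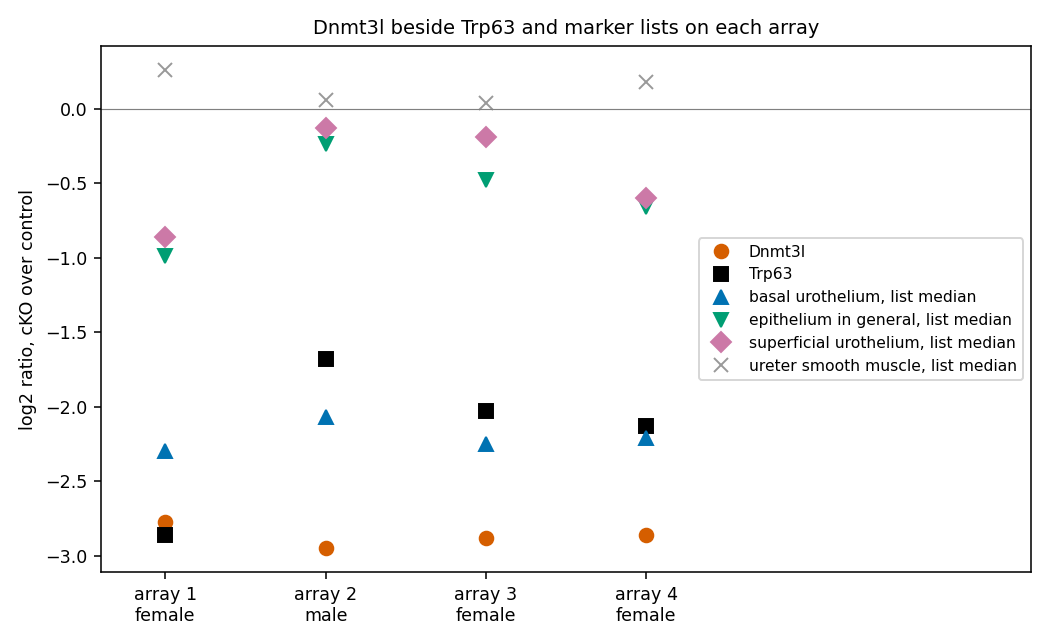
Log2 ratio of cKO over control on arrays 1 to 4 for Dnmt3l, for Trp63 and, as list medians, for markers of basal urothelium, epithelium in general, superficial urothelium and smooth muscle. Dnmt3l runs between -2.95 and -2.77 and the basal median between -2.30 and -2.07, while Trp63 runs between -2.86 and -1.68.

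Markers of germ cells, the cells best known for Dnmt3l, were mostly dim. Of 9 germ cell markers, Dppa3, Nanos2, Piwil2, Tdrd1 and Sohlh1 did not pass the filter. The other 4, Dazl, Ddx4, Nanos3 and Dnd1, were not called by limma in either direction (1 higher at an unadjusted p under 0.05). Their median was 0.06, with a summed level of 11.23 to 11.53 in cKO and 11.16 to 11.55 in control. Nanos3 stood at 10.90 in both genotypes and Dnd1 at 9.16 in cKO and 9.15 in control. The 1 higher gene was Dazl, well above background on 4 of 4 arrays in cKO and 3 of 4 in control. Dazl thus entered the test only through cKO, where it was higher, so its value is a description. Hepatocyte markers were called higher for 3 of 8, with medians of 2.31, 2.62, 1.37 and 0.47 on arrays 1 to 4 and a summed level of 14.52 to 17.55 in cKO and 13.39 to 15.18 in control. All 8 of them were higher at an unadjusted p under 0.05, as were 1970 of all 18170 tested genes. Endothelial markers were called by limma for 0 of 6 and leukocyte markers for 0 of 5 tested (3 and 0 at an unadjusted p under 0.05).

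The genes that act beside the enzymes were examined next, by lists, against the 8.54% of all genes called by limma in either direction. At an unadjusted p under 0.05, 1970 of all 18170 tested genes were higher and 2330 lower. The readers of methylation, the DNMT partners and the S phase genes had no call, and each list had 1 gene higher and 1 lower at an unadjusted p under 0.05. Readers of methylated CpG, which bind the mark and recruit repressors, had 0 of 9 called and a median ratio of -0.01 ± 0.04 (SD of array medians); Mbd1 had 0.32 ± 0.24 (SD, n = 4; limma adjusted p = 0.139) and Mbd3 -0.01 ± 0.08. DNMT partners and chromatin regulators had 0 of 27 tested members called and a median of -0.01 ± 0.04; the heterochromatin protein gene Cbx3 had -0.05 ± 0.03 and the deacetylase gene Hdac1 0.06 ± 0.04. Genes of S phase and proliferation, to which Dnmt1 and Uhrf1 are tied in dividing cells, had 0 of 31 called. Their median was 0.03, with array medians of 0.08, -0.11, -0.02 and 0.09, and Pcna, the replication clamp, had 0.01 ± 0.15 (SD, n = 4).

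The methionine and folate cycle, which makes the methyl donor S-adenosylmethionine, had 0 of 19 called by limma (5 higher and 3 lower at an unadjusted p under 0.05) and a median of 0.03 ± 0.06. That count rests on the arrays and the fit used: 4 genes were called higher without array 4, 1 without array 2 and 1 without the dye term. Mat2a, whose product makes that donor outside the liver, had a ratio of 0.02 ± 0.24. The liver enzymes Mat1a, Bhmt and Gnmt had ratios of 0.70 ± 0.69, 0.58 ± 0.53 and 0.41 ± 0.27 (SD, n = 4 each). These did not pass the threshold (limma adjusted p = 0.187, 0.162 and 0.092) and are named after their values were seen. Mat1a was well above background on 4 of 4 arrays in cKO and 3 of 4 in control. It thus entered the test only through cKO, where it was higher, so its values are a description. The hepatocyte markers above were also higher on these arrays, and their part was not tested.

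A mixed list of base excision, deaminase and Gadd45 genes, some only proposed to act in demethylation, had 4 of 19 tested genes called. Of these, 3 were lower and 1 higher (21.1%), and the list median was -0.02 ± 0.05. Only Neil2 of the 4 is a base excision gene, so the share does not describe the step after the TET enzymes. Apobec1, a cytidine deaminase that edits Apob mRNA, fell 2.37-fold in cKO (-1.24 ± 0.07, SD, n = 4; limma adjusted p = 0.000572). Gadd45a, a stress-response gene proposed to take part in demethylation, fell 1.61-fold (-0.68 ± 0.14; limma adjusted p = 0.00345). Smaller differences were called for its relative Gadd45g (0.37 ± 0.24, limma adjusted p = 0.036) and for the DNA glycosylase gene Neil2 (-0.27 ± 0.07, limma adjusted p = 0.0375). Neither of the last calls held when any 1 array was left out, with limma adjusted p of 0.0513 to 0.153 for Gadd45g and 0.108 to 0.155 for Neil2.

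A list of TET cofactors and genes with a looser tie to them, such as Vdr, Slc2a1 and Ldha, had 2 of 9 called, both lower (22.2%). The median was -0.02, although the 4 array medians were 0.06, 0.05, -0.01 and 0.03. Vdr, the vitamin D receptor and no TET cofactor, fell 1.44-fold in cKO (-0.53 ± 0.09; limma adjusted p = 0.00869). Idh1, which makes the 2-oxoglutarate that TET enzymes consume, fell 1.36-fold (-0.45 ± 0.10; limma adjusted p = 0.0141). The Idh1 call was lost without array 1, 3 or 4, with limma adjusted p of 0.072, 0.0501 and 0.0604.

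Genes known to depend on methylation showed mostly small ratios. Of 29 tested imprinted genes, whose allele-specific expression rests on methylation imprints, 4 were called and all of these were higher in cKO (13.8%), with a median of 0.06 ± 0.11. Phlda2, a growth-restraining gene expressed from the maternal allele, rose 1.6-fold (0.67 ± 0.06, SD, n = 4; limma adjusted p = 0.00275). Peg10, a paternally expressed gene derived from a retrotransposon, rose 1.52-fold (0.60 ± 0.12, limma adjusted p = 0.00822). Its log2 ratio was 1.18 with Agilent's processed signals and 1.07 in the deposited value table, where that of Phlda2 was 0.89 and 0.93. The mean level of Peg10 was 7.51 in cKO and 6.90 in control. That is close to the dimmest level that counted as well above background in cKO, 6.30 to 6.66 by array. Levels of Phlda2 and of Peg10 overlapped between the genotypes. The paternally expressed Magel2 (0.44 ± 0.21, limma adjusted p = 0.0408) and the maternally expressed Igf2r (0.29 ± 0.13, limma adjusted p = 0.0449) were also called, but not when any 1 array was left out (limma adjusted p of 0.051 to 0.15 for Magel2 and 0.0814 to 0.184 for Igf2r). H19 (-0.29 ± 0.16) and its neighbour Igf2 (-0.04 ± 0.27), named after their values were seen, did not pass the threshold. The arrays measure no methylation and do not separate alleles.

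Of the 24 germline genes on the array that promoter methylation keeps silent in somatic cells, 11 did not pass the filter on dim signal. The mean cKO levels of the 13 that passed ran from 6.62 to 12.24 log2 units. Of the 13 tested, 1 was called (7.69%): Mael, a gene of the piRNA pathway, at 0.38 ± 0.28 (limma adjusted p = 0.0229). It was well above background on 4 of 4 arrays in cKO and 3 of 4 in control. Mael thus entered the test only through cKO, where it was higher, so its call is a description. The call was lost without array 1, 3 or 4, with limma adjusted p of 0.101, 0.0861 and 0.0914. It was also lost in the deposited value table (limma adjusted p = 0.321) and without the dye term (limma adjusted p = 0.0712).

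**Figure D5:**
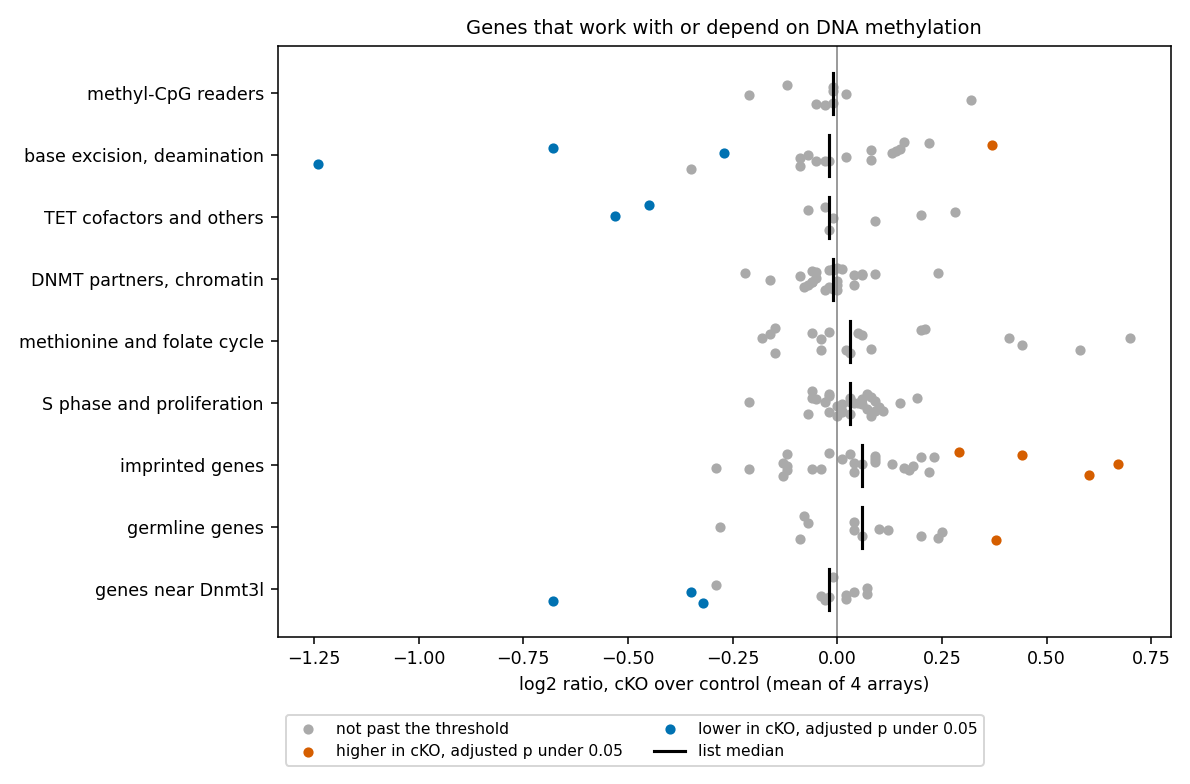
Mean log2 ratio of cKO over control for each tested gene of 9 lists (rows), with the list median as a black bar; blue points are lower and orange points higher in cKO at a limma adjusted p under 0.05, and grey points did not pass. List medians lie between -0.02 and 0.06, and the calls outside them include Apobec1 at -1.24 and Phlda2 at 0.67.

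The ratio of Dnmt3l was far below those of its neighbours on the chromosome. In the RefSeq order of genes, Trpm2, Cfap410, Pfkl and Aire precede it and Icosl, Gatd3a, Pwp2 and Trappc10 follow it on chromosome 10. Of 13 tested genes from this stretch, 3 were called, all lower (23.1%), and 0 were called lower in the deposited value table. The median ratio was -0.02, although the 4 array medians were -0.09, -0.06, -0.05 and -0.03. The adjacent Icosl, a ligand of T cell costimulation, had -0.32 ± 0.09 (limma adjusted p = 0.0323), and Pdxk, a vitamin B6 kinase, had -0.35 ± 0.13 (limma adjusted p = 0.0382). Icosl lost its call without any 1 of the arrays (limma adjusted p of 0.0568 to 0.142), and Pdxk without array 1, 3 or 4 (0.142, 0.128 and 0.129 by limma, adjusted p). Trpm2, a cation channel, was not well above background on any array in cKO and was at least 1.55-fold lower there (limma adjusted p = 0.00301). It thus entered the test only through control, where it was higher, so its call is a description. The Trpm2 log2 ratio was -0.68, against -1.99 with Agilent's processed signals. It was -0.51 in the deposited value table, where the call was lost (limma adjusted p = 0.113). The other tested genes of the stretch lay close to 0, apart from Cstb at -0.29 ± 0.25: Pfkl had -0.04, Gatd3a 0.07, Cfap410 0.07, Pwp2 0.02 and Trappc10 0.02. Agpat3 had -0.02, Lrrc3 -0.01, Tspear -0.03 and Rrp1 0.04. Aire, on the other side of Dnmt3l from Icosl, was not tested because its probes were too dim.

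Dnmt3l has 3 annotated starts, and the sequence around each is shown because the family acts on CpG sites. The windows, of 300 bases from 250 before a start to 50 after it, are RefSeq sequences of GRCm38.p6 on the plus strand, and capitals mark the CpG sites.
Dnmt3l window 1, chr10:78042037-78042336: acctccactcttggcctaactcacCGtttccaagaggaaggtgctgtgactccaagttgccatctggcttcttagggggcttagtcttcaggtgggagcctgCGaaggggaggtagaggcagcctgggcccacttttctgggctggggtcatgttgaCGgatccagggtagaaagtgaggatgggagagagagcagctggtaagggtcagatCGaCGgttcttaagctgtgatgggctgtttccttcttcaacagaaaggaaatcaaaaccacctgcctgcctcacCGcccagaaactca
Dnmt3l window 2, chr10:78049592-78049891: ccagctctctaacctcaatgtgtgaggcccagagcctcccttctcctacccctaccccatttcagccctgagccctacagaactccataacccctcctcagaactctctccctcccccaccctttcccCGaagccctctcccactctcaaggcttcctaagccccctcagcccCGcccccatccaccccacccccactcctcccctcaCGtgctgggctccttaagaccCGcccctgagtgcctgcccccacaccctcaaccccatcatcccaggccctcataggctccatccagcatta
Dnmt3l window 3, chr10:78055085-78055384: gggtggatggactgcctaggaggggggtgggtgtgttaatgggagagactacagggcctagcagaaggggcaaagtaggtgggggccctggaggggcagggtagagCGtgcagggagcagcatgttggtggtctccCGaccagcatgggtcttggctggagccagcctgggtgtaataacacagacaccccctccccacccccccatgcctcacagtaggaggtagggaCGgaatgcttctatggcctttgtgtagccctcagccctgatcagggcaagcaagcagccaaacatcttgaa
They hold 6, 4 and 3 CpG sites, and 43.6%, 31.4% and 23.3% of all 32851 RefSeq windows of this length hold fewer; the median is 7. The windows of Dnmt3a hold 46, 47 and 18 CpG sites, that of Dnmt3b 30, those of Dnmt1 2, 12 and 33 and those of Uhrf1 12 and 33. Tet1 has 17 in its window, Tet2 57 and Tet3 22. The half-site of the p53 family, to which p63 belongs, was searched on both strands by its consensus and was in 0 of the 15 windows of the 8 genes; 8.4% of all windows hold it. The search bears on these letters in these windows alone, and the Dnmt3l probe cannot tell which start was used.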

How the data were processed

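The authors hybridised cKO and control RNA (200 ng of total RNA, 1 round of amplification) to 4 two-colour arrays with the dyes swapped on 2 of them, per the labels. The deposited scanner files hold linear intensities (mean signal and median background per channel), and the file headers name Agilent Feature Extraction 10.7.3.1. In the authors' value table the log2 ratios, cKO over control, have a median of 0.00 on each array and are exactly 0 for 7718 to 12487 probes; scale and direction were found by setting them against the scanner intensities, and the treatment of dim probes is not stated.

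Signals were corrected by normexp (offset 50) and within-array loess with control spots at weight 0; outlier spots (3.04% to 3.58%) were left out, and no spot was saturated. The 4 spots of a probe were averaged and turned to log2 cKO over control. Levels are those of each channel after loess and quantile scaling of average intensities between arrays. A gene was tested if, for 1 genotype or both, every array had a share above 0.5 of a probe's spots well above background; the brightest such probe stands for the gene. Names follow RefSeq (28328 probes by accession, 3400 by symbol, 243 by an older symbol); the file's own name was used for 1777, and 5681 had none. Where a genotype was not well above background on any array, the fold is a lower limit against the dimmest level that passed on each array. Tests used limma 3.58.1 in R 4.3.3 with a dye term (2 residual degrees of freedom), adjusted by Benjamini-Hochberg over 18170 genes, and were tested on simulated data. Array pairing is built into the ratio; fits of separate channels (statmod 1.5.0) were alternatives, beside other background, scaling and filter settings, the value table and leaving out each array. Precision is limited by the number of arrays.

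The enzymes, lists and markers were chosen with earlier results of these data known. Named genes are all enzymes and probes, Trp63, up to 4 called members per list with the lowest p or the 2 brightest where none was called, genes near Dnmt3l and the 5 genes most like Dnmt3l.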

Additional observations from a re-analysis of the deposited data

Results flagged for a closer look

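In 6 of the 57 groups of 4 values examined, the highest or lowest value stood apart from the other 3 by more than Dixon's critical value; chance gives about 1 such group in 20. Array 1 held 3 of them: the Tet3 level of its cKO RNA was 7.71, the Dnmt3a level of its cKO RNA was 14.20 and the Dnmt1 level of its control RNA was 12.29. The Mat2a ratio was 0.38 on array 2, the Phlda2 ratio 0.76 on array 4 and the Agpat3 ratio 0.21 on array 4.

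Xist, which no comparison of the enzymes uses, was higher in the male cKO RNA than in the male control RNA, with a log2 ratio of 2.86 for 1 probe and 1.97 for the other.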

How the results depend on the processing

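The Dnmt3l ratio lay between -3.02 and -2.84 under every alternative run, a description of the values that chose the family and no support for them. The Dnmt3b ratio lay between 0.22 and 0.30, and Dnmt3b passed the threshold (higher) only with scaling between arrays, without the dye term and with the array as a replicate block. The median of the 8 enzymes lay between 0.01 and 0.06, and the Trp63 ratio between -2.38 and -1.38 (limma adjusted p of 2.51e-05 to 0.0172). Counts of calls moved more. Separate channels with the array as a replicate block (correlation within spots 0.741) called 1230 genes higher and 1722 lower, and 15 higher and 16 lower in the lists; with no replicate block they called 124 higher and 440 lower, and 0 higher and 2 lower in the lists, where Phlda2, Peg10 and Vdr lost their calls. The deposited value table gave 253 genes higher and 583 lower, and 2 higher and 4 lower in the lists, where the Trpm2 call was also lost (limma adjusted p = 0.113). Agilent's processed signals gave 3 higher calls in the lists. Leaving out 1 array gave 277 to 359 genes higher and 554 to 767 lower, and 2 to 6 higher and 4 to 6 lower in the lists; fewer arrays leave fewer degrees of freedom. In the main setting these counts were 530 and 1022 genes, and 6 and 8 in the lists. The cause of the other moves was not tested. Dim probes, such as those of Tet3, limit what a small ratio can show.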
